A study of Mus musculus with 18 samples.

Results

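The genes described here mark the cells of brain blood vessels: 8 genes of endothelial cells (*Cldn5*, *Flt1*, *Pecam1*, *Bsg*, *Slco1a4*, *Slc2a1*, *Ly6c1* and *Itm2a*) and 2 genes of pericytes and smooth muscle cells, together called mural cells (*Rgs5* and *Pdgfrb*). They were chosen by name as known vascular markers, and all 10 were found among the 35960 gene names of the table, on 42 of its 116873 transcript entries. The counts of the entries of a gene were summed by its name.

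The study asked how a CAG100 expansion in *Atxn2* alters the transcriptomes of brain cell types. Brains came from 10-month-old homozygous *Atxn2*-CAG100-knockin (KIN) mice and wild-type (WT) littermates on a C57BL/6 background, with 2 male pairs and 1 female pair, and the labels do not say which library is which. From dissociated brain, 3 fractions were taken in sequence with magnetic beads: microglia bound by anti-CD11b, astrocytes bound by anti-ACSA-2, and a neuronal flow-through left after a cocktail against non-neuronal cells. CD31 beads were added to this last step, and CD31 is the protein made by *Pecam1*, so endothelial cells were removed on purpose from the neuronal fraction and from no other. The 3 fractions came out of the same brain, so the libraries of different fractions share animals. The labels do not say which libraries belong to one mouse, and the comparisons of fractions took all libraries as separate samples, with the replicate number as a block as an alternative. Each fraction and genotype had 3 libraries, 18 in all. The mutation is carried by every cell of a KIN mouse, and no vascular fraction was sorted.

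Endothelial cells of the brain form the blood–brain barrier. Tight junctions seal the space between them, and carriers in their membranes bring glucose and other nutrients from blood into brain. Pericytes sit on the same capillaries inside the basement membrane, held there by platelet-derived growth factor from the endothelium, and the endfeet of astrocytes cover the outside of the vessel. Some of these genes are also used outside the vessel. In such bulk samples, fewer cells of a type and less RNA per cell cannot be told apart.

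Libraries held 2118317 to 2829969 counts in the astrocyte fraction, 2334633 to 3296398 in the microglia fraction, 761481 to 1017972 in WT neurons and 1473194 to 2017932 in KIN neurons. Levels are given as counts or as CPM, that is counts scaled to the library size, after TMM scaling over the 18 libraries. A level of 3 counts, taken as the floor, was 0.910 to 1.42 CPM in the glial libraries and 1.49 to 3.94 CPM in the neuronal ones. Reads came from the 3′ ends of transcripts, so CPM are compared between samples and not between genes. The targeted gene *Atxn2* had 19 to 37 counts in the astrocyte libraries, 14 to 41 in the microglia libraries and 3 to 10 in the neuronal libraries. Its 3′ reads do not cover the repeat and do not check the genotype. The summed levels of 6 astrocyte markers (336 to 929 CPM in the astrocyte fraction, at most 33.6 CPM elsewhere) and of 6 microglia markers (434 to 744 CPM in the microglia fraction, at most 11.4 CPM elsewhere) followed the labels. The 6 neuronal markers overlapped between neuronal libraries (84.9 to 141 CPM) and WT astrocyte libraries (28.6 to 87.2 CPM).

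Vascular RNA was thin in all fractions. Of 6 further endothelial markers, *Cdh5*, *Kdr*, *Tek*, *Tie1*, *Emcn* and *Vwf*, which encode a junction protein, receptors and surface or secreted proteins of endothelium, no library of any fraction had more than 16 counts of one gene. Their summed counts were 128 over the 6 astrocyte libraries, 109 over the 6 microglia libraries and 41 over the 6 neuronal libraries, where *Cdh5* was at 0. Scaled to the unequal depth, their mean levels summed to 7.36, 6.88 and 5.33 CPM, and *Tie1* was at 1.36, 1.39 and 1.75 CPM. Of 4 further mural markers, *Vtn* stood out with 300 counts in astrocyte libraries, 15 in microglia libraries and 8 in neuronal libraries. *Abcc9*, a subunit of the potassium channel of pericytes, had nearly the same level in the 3 fractions (3.95 ± 0.780, 4.08 ± 1.35 and 3.54 ± 1.26 CPM, SD, n = 6 each), and *Kcnj8*, which makes the pore of the same channel, had 9, 2 and 1 counts. *Cspg4* was at 4.27 ± 1.59, 1.91 ± 0.827 and 3.89 ± 2.51 CPM in astrocyte, microglia and neuronal libraries (SD, n = 6 each). In the same order, the mean levels of the 4 mural markers summed to 27.1, 7.08 and 8.91 CPM.

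One sequence bears on which of the 10 genes measure vessels. *Pecam1* lies on the minus strand of chr11:106543689-106641454 (GRCm39, the assembly also named mm39), and 94.7% of its counts fell on 1 of its 8 entries, ENSMUST00000184424, annotated as a retained intron at chr11:106552011-106554152. This entry holds a stretch of 193 bases, bases 217 to 409 of the transcript, in which every run of 31 bases also occurs in transcripts of other genes. Over the whole entry, 4330 other genes share such a run. The stretch lies at chr11:106553744-106553936 on the minus strand and overlaps 0 exons of other *Pecam1* transcripts. It is shown 5′ to 3′ because reads from it cannot be assigned to *Pecam1* alone, with its longest run of A, 43 bases, in capitals.
Pecam1 shared stretch: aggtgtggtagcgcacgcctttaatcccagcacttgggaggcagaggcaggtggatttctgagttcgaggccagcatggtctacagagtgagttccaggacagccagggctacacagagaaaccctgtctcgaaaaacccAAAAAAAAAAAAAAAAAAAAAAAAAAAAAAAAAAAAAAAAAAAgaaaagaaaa

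*Pecam1* encodes the adhesion molecule CD31 of endothelial junctions, platelets and leukocytes. Summed over all entries, its counts were 82, 76 and 83 in WT astrocyte libraries, 81, 97 and 88 in KIN astrocyte libraries, 106, 79 and 61 in WT microglia libraries and 114, 120 and 120 in KIN microglia libraries. Without the entry shown, the same libraries had 6, 4 and 6, then 5, 5 and 2, then 4, 10 and 3, and then 4, 6 and 4 counts. The neuronal libraries had 11, 10 and 19 counts in WT and 11, 16 and 17 in KIN, of which 2, 0 and 0 and then 1, 0 and 1 were on the other entries. The sum over all entries thus gave *Pecam1* in every neuronal library, whereas the entries that encode the protein were at 0 in 3 of these 6 libraries. How many of the reads on the shared entry came from *Pecam1* was not tested.

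*Flt1* had the same feature in part. It encodes VEGF receptor 1 and lies on the minus strand of chr5:147498414-147662826. Its full-length entry ENSMUST00000031653 took 48.9% of the counts, and 40.2% fell on the shorter coding entry ENSMUST00000110529, of whose runs of 31 bases 64 also occur in other genes, 6414 in all, the longest stretch of such runs being 65 bases. The full-length entry had 13, 12 and 10 counts in WT astrocyte libraries, 10, 5 and 4 in KIN astrocyte libraries, 6, 3 and 10 in WT microglia libraries and 3, 4 and 4 in KIN microglia libraries. It had 1 count in total over the 6 neuronal libraries, where the shorter entry had 12 counts. *Ly6c1*, a surface protein of endothelium on the minus strand of chr15:74915847-74920686, shared 57.6% of the 31-base runs of ENSMUST00000065408 with other genes, foremost *Ly6c2* of monocytes. Over the astrocyte, microglia and neuronal libraries, *Ly6c2* had 2, 22 and 100 counts, and *Ly6c1* had 40, 18 and 4. The part of the shared runs in these values was not tested. The entries of *Cldn5*, *Bsg*, *Itm2a* and *Pdgfrb* shared no such run with another gene. In *Slc2a1* up to 4.30% of the runs of an entry were shared with *Gm12868*, in *Slco1a4* up to 14.4% foremost with *Slco1a5*, and in *Rgs5* up to 0.415%.

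**Figure D1:**
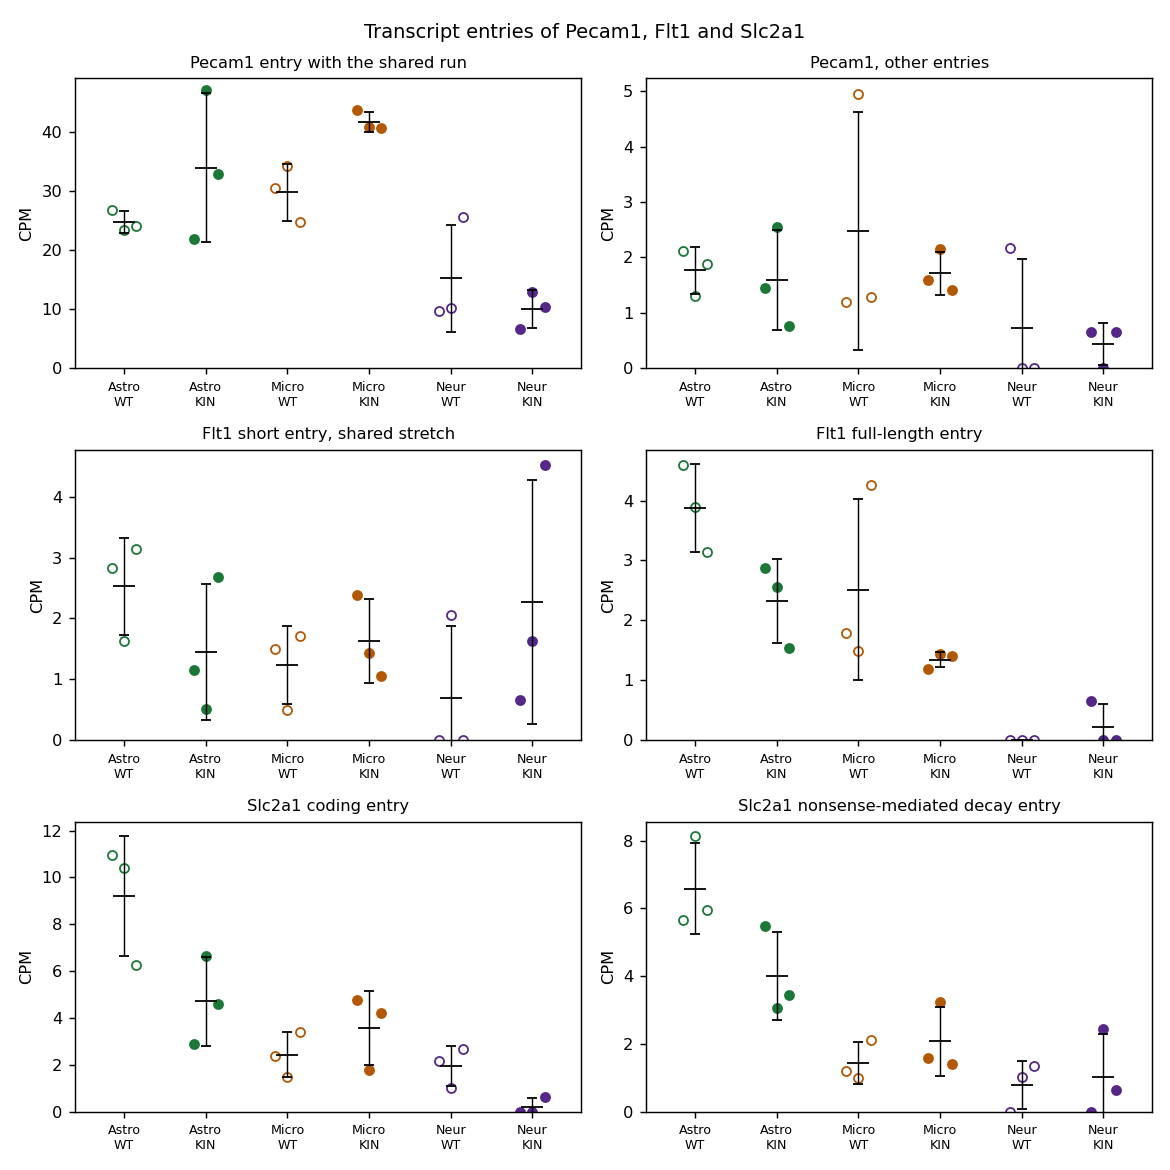
CPM of transcript entries of *Pecam1*, *Flt1* and *Slc2a1* (y axis, CPM) in each of the 18 libraries (x axis, fraction and genotype; open circles WT, filled circles KIN); black lines are the mean ± SD of 3 libraries, cut off at 0. The *Pecam1* entry with the shared stretch lies between 6.55 and 47.1 CPM, while the other *Pecam1* entries together do not exceed 4.96 CPM, and the full-length *Flt1* entry is at 0 in 5 of 6 neuronal libraries.

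The first comparison asked in which fraction the vascular genes were found. Of the 10 genes, 5 were higher in the astrocyte fraction than in the microglia fraction and 0 were lower, where 19.0% of the 13277 genes tested were called higher (edgeR quasi-likelihood test, genotype as a covariate, a call needing both a p of 0.05 or less after Benjamini-Hochberg adjustment and a log2 fold change of 1 or more in size). The 5 were *Pdgfrb*, *Rgs5*, *Itm2a*, *Slc2a1* and *Cldn5*. The median log2 fold change over the 8 endothelial genes was 0.97 and over the 2 mural genes 2.76, beside 0.04 over all genes tested. *Pdgfrb*, *Rgs5*, *Itm2a* and *Slco1a4* reached the filter of 5 counts in at least 2 libraries through the astrocyte libraries alone, so that the count and the medians are a description only. The p-values of these genes come from a comparison with a fraction in which they lay below that filter. These fractions differ in the beads used and in their place in the sequence of isolation, and these cannot be told apart from the cell type.

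**Figure D2:**
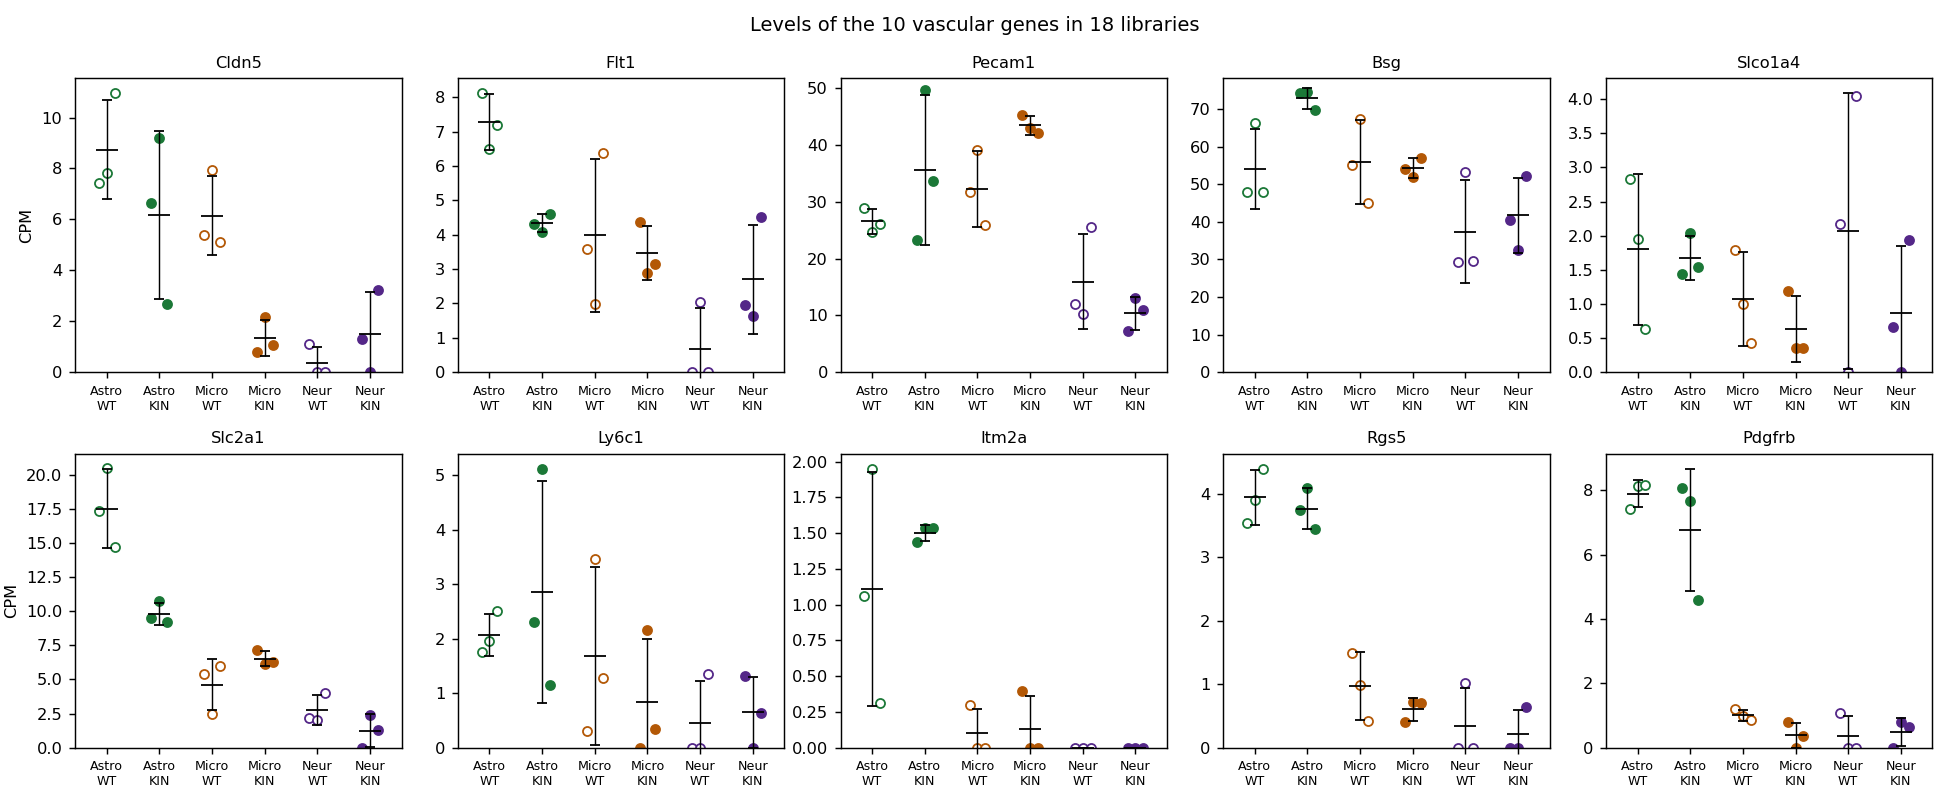
CPM of the 10 vascular genes (y axis, CPM, starting at 0, with its own scale for each gene) in each of the 18 libraries (x axis, fraction and genotype; open circles WT, filled circles KIN); black lines are the mean ± SD of 3 libraries, cut off at 0. All 6 astrocyte libraries lie above all 6 microglia libraries for *Slc2a1*, *Rgs5* and *Pdgfrb*.

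The mural genes had low counts outside the astrocyte fraction. *Pdgfrb*, the receptor through which pericytes respond to platelet-derived growth factor (chr18:61178212-61218133, plus strand), had 21, 25 and 26 counts in WT and 28, 15 and 12 counts in KIN astrocyte libraries. The microglia libraries had 4, 2 and 2 counts in WT and 2, 0 and 1 in KIN, and the neuronal libraries had 3 counts in total. Every astrocyte library stood above every library of the other fractions. The level was 7.34 ± 1.37 CPM (SD, n = 6) in astrocyte libraries and 0.697 ± 0.441 CPM in microglia libraries, a log2 difference of 3.33 (SE 0.36, adjusted p = 1.35e-10 by edgeR). Against the neuronal fraction, 127 counts stood beside 3, a ratio of the depth-scaled totals of 17.2 (exact 95% interval 5.74 to 84.4, counting error only).

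*Rgs5*, a regulator of G-protein signaling that is abundant in pericytes (chr1:169483036-169524887, plus strand), behaved in the same way. Its counts were 10, 12 and 14 in WT and 13, 8 and 9 in KIN astrocyte libraries, 8 in total over WT microglia libraries (5, 2 and 1) and 5 over KIN (1, 2 and 2), and 2 in total over the neuronal libraries. Again no astrocyte library reached down to the range of another fraction. The astrocyte level of 3.85 ± 0.353 CPM (SD, n = 6) was the least variable of the 10 genes in relation to its mean, and it exceeded the microglia level of 0.788 ± 0.409 CPM by 2.18 on the log2 scale (SE 0.38, adjusted p = 6.60e-06 by edgeR). The ratio to the neuronal fraction was 13.4 (exact 95% interval 3.56 to 113).

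Among the endothelial genes, *Itm2a* had the fewest counts outside the astrocyte fraction. This gene encodes a small integral membrane protein and lies on the minus strand of chrX:106418945-106447419. It had 3, 6 and 1 counts in WT and 5, 3 and 4 in KIN astrocyte libraries, 1 count in 1 library of each genotype in microglia, and 0 in all 6 neuronal libraries. Over the fractions these are 22, 2 and 0 counts. The ratio of astrocyte to microglia fraction was 10.2 (exact 95% interval 2.50 to 89.4, adjusted p = 0.00205 by edgeR). The astrocyte level was at least 2.97-fold higher than that of the neuronal fraction, computed against a floor of 3 counts over the 6 neuronal libraries.

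*Slc2a1* encodes the glucose transporter GLUT1 of the barrier endothelium, which astrocytes also use in a smaller form (chr4:118965908-118996365, plus strand). It had 49, 63 and 47 counts in WT and 33, 21 and 24 in KIN astrocyte libraries, 18, 5 and 14 in WT microglia libraries, 18, 17 and 18 in those of KIN, and 2, 2 and 3 and then 0, 3 and 2 in the neuronal libraries. The 3 fractions formed a descending order, with 13.7 ± 4.62, 5.56 ± 1.62 and 2.00 ± 1.33 CPM (SD, n = 6 each). Both steps were called by edgeR, the second with neuronal counts below the count filter. The astrocyte fraction exceeded the microglia fraction by 1.25 on the log2 scale (SE 0.24, adjusted p = 2.58e-05), and the neuronal fraction differed from the microglia fraction by -1.70 (SE 0.45, adjusted p = 0.00184).

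*Cldn5* encodes claudin-5, the main tight junction protein of the barrier, and has a single exon at chr16:18595597-18597012 on the plus strand. The astrocyte libraries had 21, 24 and 35 counts in WT and 23, 18 and 7 in KIN, and the microglia libraries 18, 16 and 12 in WT and 2, 6 and 3 in KIN. The neuronal libraries had 1, 0 and 0 counts in WT and 2, 0 and 5 in KIN. The WT microglia libraries lay within the range of the astrocyte libraries, and the KIN microglia libraries lay below it. The fractions differed by 1.08 on the log2 scale (SE 0.29, adjusted p = 0.00245 by edgeR), and this difference fell below the threshold of 1 without KIN astrocyte library 1 (0.97) or 2 (0.89) and without KIN microglia library 1 (0.95) or 3 (0.92).

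The other endothelial genes did not pass the test between the glial fractions. *Flt1* was at 5.81 ± 1.70 CPM in astrocyte and 3.73 ± 1.52 CPM in microglia libraries (SD, n = 6 each, log2 difference 0.63, SE 0.27). *Ly6c1* was at 2.47 ± 1.38 and 1.26 ± 1.34 CPM (1.02, SE 0.50), and it passed without WT microglia library 2 (1.53) or KIN microglia library 2 (1.33). *Slco1a4* encodes the organic anion transporter Oatp1a4 of brain capillaries and lies on the minus strand of chr6:141751165-141802036. With 1.74 ± 0.733 and 0.852 ± 0.582 CPM it was near the floor in both fractions. *Bsg* encodes basigin, a glycoprotein rich in brain endothelium that also escorts lactate carriers to the surface of glia and neurons (chr10:79540143-79547821, plus strand). It was at 63.5 ± 12.4 and 55.2 ± 7.31 CPM, and *Pecam1* with its shared entry was at 31.1 ± 9.82 and 37.9 ± 7.51 CPM, with log2 differences of 0.20 (95% interval -0.15 to 0.55) and -0.29 (95% interval -0.65 to 0.07).

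In the neuronal fraction, depleted with CD31 beads, *Bsg* and *Pecam1* alone among the 10 genes reached 5 counts in at least 2 libraries. Against the astrocyte fraction, 8 of 10 genes were called lower, where 18.7% of 12358 genes were lower (edgeR), and the exceptions were *Bsg* and *Slco1a4*. All of the genes called lower except *Pecam1* passed the count filter through the astrocyte libraries alone, so nothing is read from their number. The list of other endothelial identity genes had a median log2 fold change of -0.26, close to the -0.24 of all genes, with 1 of 14 genes higher and 1 lower. *Cldn5* differed by -2.57 (SE 0.50), *Flt1* by -1.45 (SE 0.44), *Slc2a1* by -2.81 (SE 0.37) and *Ly6c1* by -1.98 (SE 0.71). Without its shared entries, *Flt1* had 64 counts in the astrocyte fraction beside 1 in the neuronal fraction, a ratio of 26.0 (exact 95% interval 4.50 to 1041). *Bsg* remained detected in every neuronal library, with 39.6 ± 11.0 CPM (SD, n = 6) in neuronal libraries and a log2 difference of -0.64 (SE 0.21, adjusted p = 0.0121), which is smaller than the threshold. *Pecam1* differed by -1.28 (SE 0.25), and without the shared entry by -1.36 with a larger error (SE 0.77), which did not pass (adjusted p = 0.167 by edgeR). *Ly6c1* lost its call with the replicate number as a block (adjusted p = 0.0540 by edgeR) and without KIN astrocyte library 2, WT neuronal library 1 or KIN neuronal library 2.

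Against the microglia fraction, 6 genes could be tested and 2 were lower in the neuronal fraction, *Pecam1* and *Slc2a1*, where 19.0% of 11575 genes were lower (edgeR). Of the 6, only *Bsg* and *Pecam1* would have passed the count filter in the neuronal libraries. *Pecam1* differed by -1.63 (SE 0.25), and without its shared entry by -1.67 with a larger error (SE 0.76), which did not pass (adjusted p = 0.0789 by edgeR). The outcome for *Flt1* turned on its entries: the sum over all entries differed by -0.95 (SE 0.49, adjusted p = 0.124 by edgeR), while without the shared entries 36 counts in microglia stood beside 1 in the neuronal fraction, a ratio of 15.8 (exact 95% interval 2.65 to 640, adjusted p = 0.00201 by edgeR). The sum over all entries also passed without KIN neuronal library 3 (-1.51, adjusted p = 0.0363 by edgeR), which held 7 counts of the shorter entry. *Cldn5* differed by -1.41 (SE 0.59, adjusted p = 0.0575) and passed without KIN neuronal library 3, which held 5 of the 8 neuronal counts (-2.53, adjusted p = 0.00403 by edgeR), and also without KIN microglia library 1 (adjusted p = 0.0402) or 3 (0.0440). Erythrocyte genes were highest in the neuronal fraction. The summed level of 5 globin and heme genes was 112 to 519 CPM in the neuronal libraries, 8.44 to 23.7 CPM in the astrocyte libraries and 2.48 to 6.87 CPM in the microglia libraries.

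**Figure D3:**
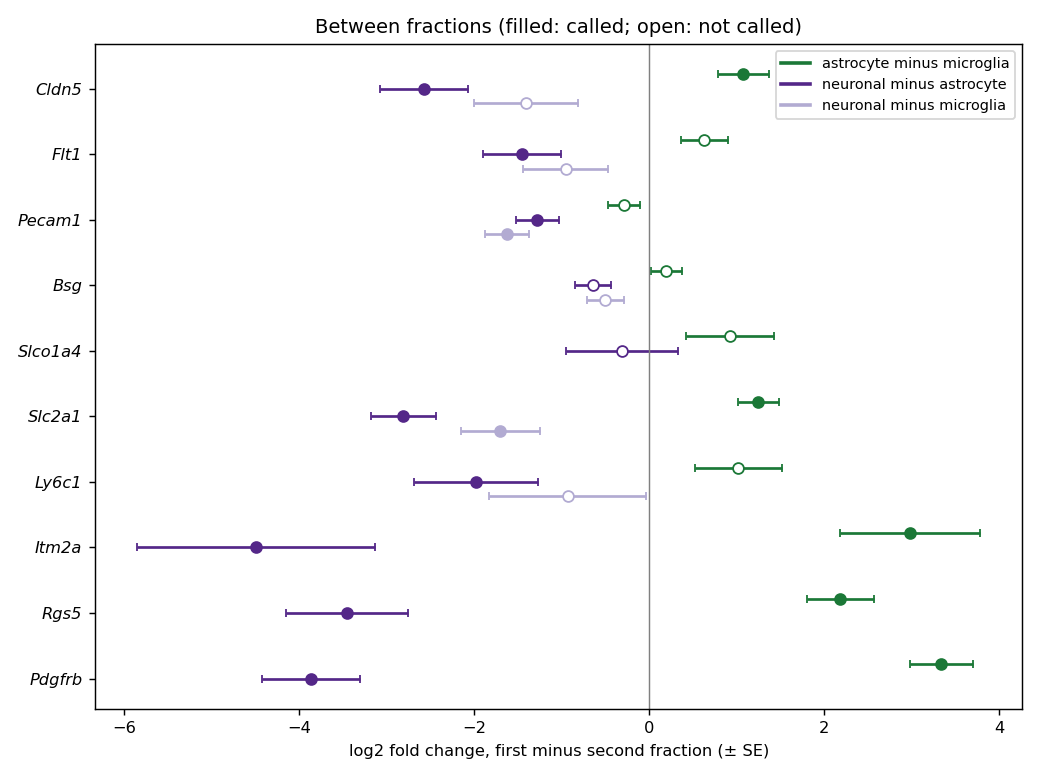
Log2 fold changes between fractions (x axis, first minus second fraction, ± SE, edgeR, 6 libraries a fraction) of the 10 genes (y axis); filled points were called and open points were not, and genes below the count filter of a comparison have no point. For astrocyte against microglia, *Pdgfrb* and *Itm2a* lie farthest from 0, at 3.33 and 2.98, and *Bsg* and *Pecam1* closest; fitted values of genes with 3 counts or fewer in a fraction are no measure of size.

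Other genes of the vessel wall were taken from lists of known genes. Of 81 tested, 32 were higher in the astrocyte than in the microglia fraction and 10 were lower, where 19.0% of all genes were higher and 14.6% lower. Within the microglia libraries 57 of the 81 passed the count filter, and the others passed it within the astrocyte libraries, so these counts are a description and nothing is read from their distance to the shares of all genes. Of the mural genes beside the 2 members, 6 of 10 tested were higher and 0 lower in the astrocyte than in the microglia fraction, and 5 of the 10 passed the filter within the microglia libraries. Higher were among others *Vtn* (vitronectin), *Notch3* and *Mcam*, with log2 fold changes of 4.19, 2.37 and 2.65. Of the basement membrane genes, 8 of 14 were higher, such as *Col4a1* (1.81) and *Lama2* (3.47), and 1, *Sparc*, was lower (-1.74). Of the endothelial identity genes, 2 of 14 were higher (*Egfl7*, 1.52, and *Esam*, 1.39) and 2 were lower (*Cd34*, -1.75, and *Eng*, -1.63), which immune cells also use. Of the genes of astrocyte endfeet, 7 of 8 were higher, and 4 of the 8 passed the filter within the microglia libraries. The largest fitted differences in favor of astrocytes over all these lists were *Wnt7b*, a ligand for the barrier endothelium with 173 counts against 0 (at least 53.4-fold higher), *Mlc1* with 518 counts against 3 (ratio 160, exact 95% interval 54.4 to 778) and *Gjb6* with 212 against 2 (ratio 98.2, 26.8 to 816). The bound of *Wnt7b* lies below the 61.6-fold of *Aqp4*, so *Wnt7b* is not shown to exceed it. The largest differences in favor of microglia were *Slco2b1*, *F11r* and *Pdgfb* (log2 fold changes of -5.27, -4.67 and -4.46), a transporter, a junction protein and the ligand of *Pdgfrb*. *Pdgfb* was thus at 31.4 ± 3.35 CPM (SD, n = 3) in WT microglia and 2.43 ± 0.443 CPM in WT astrocytes, opposite in order to its receptor.

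Against astrocytes, 31 of 78 genes of these lists were lower in the neuronal fraction, where 18.7% of all genes were lower, and 2 were higher, where 11.4% were higher. Within the neuronal libraries 21 of the 78 passed the count filter, so a lower call was the likelier direction for the rest and nothing is read from the count. The 3 largest fitted differences were all endfoot genes: *Mlc1* and *Aqp4* were at 0 counts (at least 70.0-fold and at least 68.6-fold lower), and *Hepacam* had 2 counts against 536 (ratio 109, exact 95% interval 29.9 to 900.0). *Gjb6* with 1 count against 212 (ratio 86.0, 15.3 to 3413) and *Wnt7b* with 1 against 173 (70.2, 12.4 to 2788) lay above the bounds of *Mlc1* and *Aqp4*. The fitted order is therefore no order of size. Only *Ctla2a* (1.85, adjusted p = 0.000125) and *Tgfbr1* (1.09, adjusted p = 0.0340, by edgeR) of the 78 genes tested were higher than in astrocytes, and *Tgfbr1* was not called with DESeq2 (adjusted p = 0.0707), with the replicate number as a block (0.0871) or without WT neuronal library 2 (0.111), among other settings. Against microglia, 14 of 61 were lower and 5 higher, where 19.0% of all genes were lower and 10.3% higher, and 21 of the 61 passed the filter within the neuronal libraries, so that this count is a description too. *Wnt7a* (23 counts against 2, ratio 26.3, exact 95% interval 6.49 to 230), *Agrn* (log2 fold change 2.35) and *Slco1c1* (2.15) were higher. *Slco2b1* (2 counts against 458, ratio 100.3, exact 95% interval 27.6 to 831), *Sparc* (-5.94) and *F11r* (3 counts against 325, ratio 47.4, exact 95% interval 16.1 to 231) were lower. Of the lists, 2 of the 5 mural genes tested here had fold changes above 0 and none was called.

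The second comparison asked whether the knockin moved vascular RNA within a fraction. In the astrocyte fraction 0 of 10 genes were called, where 8.84% of 11751 genes were called in either direction (edgeR), and 2 had an unadjusted p under 0.05. With DESeq2, 0 were called as well, though 3 of the 10 received no adjusted p from it. The libraries of the genotypes did not overlap for 3 of the 10 genes, which held for 27.9% of all genes. These were *Slc2a1* and *Flt1*, with KIN below WT, and *Bsg*, with KIN above WT.

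*Slc2a1* was at 17.3, 20.5 and 14.7 CPM in WT and at 9.51, 10.7 and 9.20 CPM in KIN astrocyte libraries. The 3 KIN values were all under the lowest WT value. The log2 fold change was -0.86 (SE 0.25, 95% interval -1.34 to -0.37), and its adjusted p of 0.0156 (edgeR) passed, while its size stayed under the threshold of 1. The adjusted p was 0.0765 with DESeq2, 0.0505 by edgeR in the fit of all 18 libraries, 0.0701 without KIN library 1 and 0.0925 without KIN library 3. Its counts lay on 2 main entries. The protein-coding entry ENSMUST00000030398 had 31, 32 and 20 counts in WT and 10, 13 and 12 in KIN, and as the entry of highest mean it was called lower (-1.08, SE 0.33, adjusted p = 0.0210 by edgeR). The entry ENSMUST00000174372, annotated for nonsense-mediated decay, had 16, 25 and 19 counts in WT and 19, 6 and 9 in KIN.

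*Flt1* had 23, 20 and 23 counts in WT and 15, 8 and 12 counts in KIN astrocyte libraries, or 7.28 ± 0.813 and 4.34 ± 0.255 CPM (SD, n = 3 each). The groups did not overlap, and the log2 fold change was -0.75 (SE 0.32), but the adjusted p was 0.125 by edgeR. *Cldn5* was at 7.42, 7.80 and 11.0 CPM in WT and at 6.63, 9.21 and 2.68 CPM in KIN. The groups overlapped (-0.56, SE 0.32, adjusted p = 0.280), and KIN library 3 alone was far below the others. *Bsg* was at 48.0, 66.3 and 48.0 CPM in WT and at 74.3, 74.7 and 69.8 CPM in KIN (0.42, SE 0.21, adjusted p = 0.204), with all KIN libraries above WT.

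The mural genes hardly differed between the genotypes here. *Pdgfrb* was at 7.90 ± 0.417 CPM in WT and 6.78 ± 1.90 CPM in KIN (SD, n = 3 each), with a log2 fold change of -0.23 and a 95% interval of -0.81 to 0.35. *Rgs5* was at 3.94 ± 0.430 and 3.76 ± 0.321 CPM, with a log2 fold change of -0.09 and a 95% interval of -0.83 to 0.64. A change by the threshold of 1 lies outside both intervals. *Itm2a* (0.41, 95% interval -1.01 to 1.84), *Ly6c1* (0.32, -0.67 to 1.32) and *Slco1a4* (-0.13, -1.32 to 1.06) were too sparse to bound a change of that size. The summed level of the 8 endothelial genes, of which *Bsg* and *Pecam1* gave most counts, was 110 to 132 CPM in WT and 123 to 157 CPM in KIN.

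In the microglia fraction, 6 genes passed the count filter and 1 of them, *Cldn5*, was called lower in KIN, where 1.52% of 10831 genes were called (edgeR). *Cldn5* met the count filter through the WT libraries alone, so its p comes from a comparison with a group below that filter. Nothing is read from the distance of 1 of 6 to the share of all genes. *Cldn5* was at 5.38, 7.94 and 5.11 CPM in WT and at 0.795, 2.15 and 1.05 CPM in KIN. All KIN libraries lay below all WT libraries, with 11 counts in KIN beside 46 in WT. The log2 fold change was -2.12 (SE 0.45, adjusted p = 0.0133), a 4.35-fold lower level. The call was lost without KIN library 1 (adjusted p = 0.103) or KIN library 3 (adjusted p = 0.0841), and a filter at a mean of 10 counts left the gene untested. DESeq2 gave -2.19 (SE 0.66) with an unadjusted p of 0.000921 and no adjusted p for it.

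No other member was called in this fraction. *Flt1* was at 3.58, 1.98 and 6.39 CPM in WT microglia, beside 4.37, 2.87 and 3.16 CPM in KIN, with overlapping groups (-0.22, SE 0.42). *Slc2a1* was at 5.38, 2.48 and 5.96 CPM in WT and 7.15, 6.10 and 6.31 CPM in KIN, all KIN libraries above WT (0.45, SE 0.34, adjusted p = 0.696). *Pecam1* was also above WT in all KIN libraries (0.43, SE 0.23, adjusted p = 0.489 by edgeR), and without the shared entry its fold change was -0.38 (SE 0.61). The libraries of 3 of the 6 genes tested did not overlap, or of 2 when *Pecam1* is taken without its shared entry, where its genotypes overlapped, and 16.0% of all genes did not overlap. *Bsg* was at 55.9 ± 11.2 CPM in WT and 54.4 ± 2.58 CPM in KIN (SD, n = 3 each, log2 fold change -0.04, 95% interval -0.48 to 0.41), and *Ly6c1* at 1.68 ± 1.63 and 0.835 ± 1.16 CPM (-0.76, SE 0.95). *Pdgfrb* had 8 counts in WT and 3 in KIN microglia, a ratio of 2.82 (exact 95% interval 0.677 to 16.5), and *Rgs5* had 8 and 5, *Slco1a4* 9 and 5, and *Itm2a* 1 and 1.

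Markers of other cells differed between the same libraries. In microglia, the summed level of 6 neuronal markers was 13.4 to 43.0 CPM in WT and 5.03 to 8.77 CPM in KIN, with 3 of 6 called lower, and that of 6 astrocyte markers was 23.3 to 33.6 and 15.1 to 16.5 CPM, with 2 of 4 tested called lower. In astrocytes, the neuronal sum was 28.6 to 87.2 CPM in WT and 22.8 to 34.1 CPM in KIN, with 5 of 6 called lower, the sum of 6 oligodendrocyte markers was 394 to 608 and 715 to 718 CPM, and the astrocyte markers themselves summed to 630 to 929 CPM in WT and 336 to 372 CPM in KIN. The part of these shifts in the values of *Slc2a1* and *Cldn5* was not tested.

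**Figure D4:**
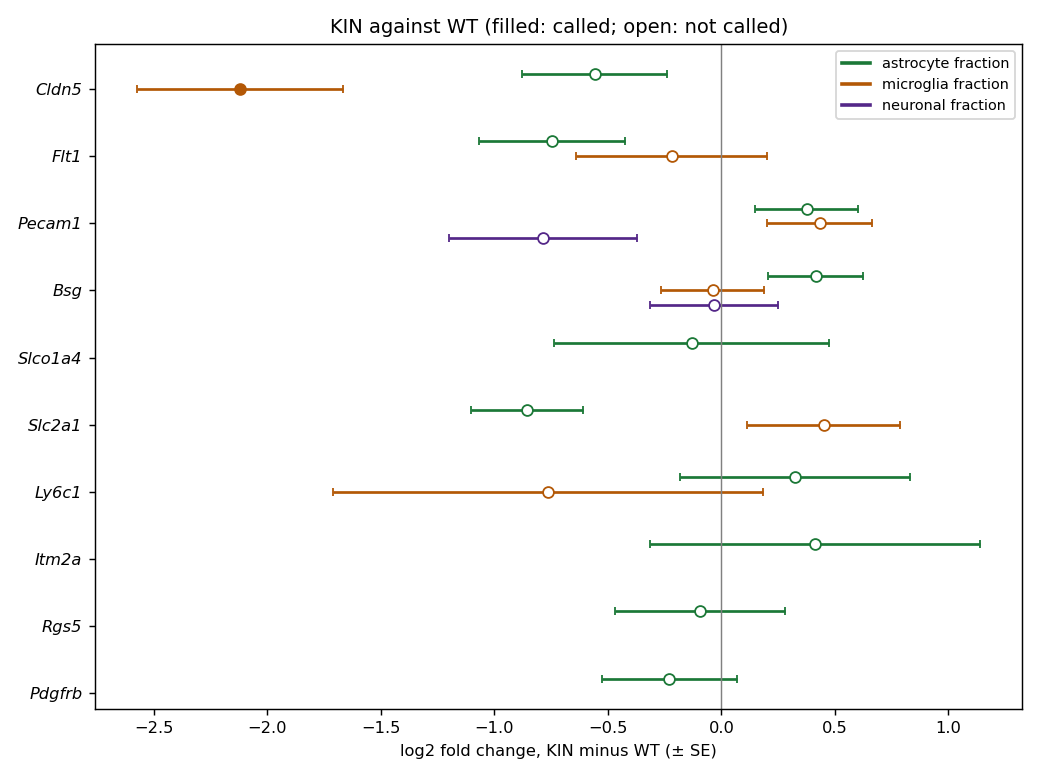
Log2 fold changes of KIN against WT (x axis, KIN minus WT, ± SE, edgeR, 3 libraries a group) of the 10 genes (y axis) in the 3 fractions (color); filled points were called and open points were not, and genes below the count filter of a fraction have no point. *Cldn5* in the microglia fraction, at -2.12, is the one filled point, and *Slc2a1* lies at -0.86 in the astrocyte and 0.45 in the microglia fraction.

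In the neuronal fraction, *Bsg* and *Pecam1* alone passed the count filter. *Bsg* had 27, 52 and 22 counts in WT and 62, 40 and 81 in KIN libraries, and after scaling to the unequal depth the log2 fold change was -0.03 (95% interval -0.59 to 0.52). *Pecam1* had a log2 fold change of -0.79 (SE 0.41), almost all of it on the shared entry. Neither was called, where 0.0739% of 6765 genes were called (edgeR), and 0 had an unadjusted p under 0.05. The remaining 8 genes had 12 counts or fewer in each genotype and were not tested. In this fraction *Flt1* had 2 counts in WT and 12 in KIN (ratio 3.67, exact 95% interval 0.818 to 33.8), of which 10 KIN counts were on the shared short entry, and *Cldn5* had 1 and 7 (ratio 4.29, exact 95% interval 0.551 to 193).

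The third comparison asked whether the effect of the knockin differed between microglia and astrocytes. The interaction term was called for 0 of 10 genes, where 1.14% of 13277 genes were called (edgeR), and 2 genes had an unadjusted p under 0.05. DESeq2 called 0 and gave 7 of the 10 no adjusted p. *Slc2a1* had a difference of 1.31 (SE 0.43, adjusted p = 0.121), from -0.86 in astrocytes to 0.45 in microglia. *Cldn5* had a difference of -1.56 (SE 0.59, adjusted p = 0.191), from -0.56 to -2.12. The lower *Cldn5* of KIN microglia and the lower *Slc2a1* of KIN astrocytes were therefore not shown to be particular to their fractions.

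Other vascular genes were compared between the genotypes in the astrocyte fraction. Of 78 tested genes of the vascular lists, 11 were lower and 0 higher in KIN, where 6.42% of all genes were lower, and their median log2 fold change was -0.33, beside 0.00 over all genes. Genes low in KIN could pass the count filter through the WT libraries alone, as *Robo4*, *Pdgfb* and *Nrp1* did. For such genes a lower call was the likelier direction. The counts and medians are therefore a description, and nothing is read from their distance to all genes. The lowest fold changes were those of *Robo4*, an endothelial receptor with 5, 7 and 6 counts in WT and 1, 0 and 1 in KIN (ratio 7.95, exact 95% interval 1.90 to 70.6), *Pdgfb* with 22 counts in WT and 3 in KIN (ratio 6.48, 1.95 to 33.8), and *Nrp1*, a co-receptor of VEGF (-2.08, SE 0.51, adjusted p = 0.00373 by edgeR). The call of *Robo4* was lost without any 1 of the 6 libraries, and that of *Pdgfb* without WT library 1 or 3 or KIN library 2 or 3. Endothelial identity genes had 2 of 14 lower and 13 of 14 fold changes below 0, with a median of -0.81. By list, the other genes lower were 2 of 14 barrier junction and transporter genes (*Mfsd2a*, the lipid carrier of barrier endothelium, -1.72, and *Slco1c1*, a thyroid hormone carrier, -1.13), 3 of 9 ligands (*Pdgfb*, *Wnt7a* and *Vegfa*), 1 of 12 receptors, 1 of 13 basement membrane genes and 2 of 8 endfoot genes. Many of these are also made by astrocytes, and the mural list had 0 of 10 called and a median of 0.23. The count of 11 ranged from 5 without WT astrocyte library 3 to 12 when single libraries were left out, it was 6 without KIN library 1, 7 without WT library 1 or KIN library 3, and DESeq2 called 3.

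In KIN microglia, 1 of 57 genes of these lists was called, near the 1.52% of all genes called there. It was *Notch3*, a receptor of mural cells, with 13, 2 and 13 counts in WT and 2, 1 and 1 in KIN (-2.75, SE 0.70, adjusted p = 0.0429 by edgeR). *Notch3* met the count filter through the WT libraries alone, so this p comes from a comparison with a group below that filter. With the replicate number as a block it was not called (adjusted p = 0.0502), and it was lost without any 1 of the 3 KIN libraries, with adjusted p up to 0.181. In the neuronal fraction 0 of 21 were called.

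The 10 genes did not vary as one unit. Over the 18 libraries the correlation of their log2 CPM had a median of 0.52 over 45 pairs, ranging from -0.12 to 0.88, and after the mean of each fraction and genotype was subtracted the median was 0.04, ranging from -0.43 to 0.79. These libraries share fractions and depth, and the values are a description. Outside the members, the 5 genes whose log2 CPM followed the mean of the 8 endothelial genes most closely over 18 libraries were *5031439G07Rik*, *Ddx17*, *Itm2c*, *Nacc2* and *Ramp1* (r from 0.93 to 0.94). The 5 closest to the 2 mural genes were *Jakmip3*, *Aqp4*, *Mal*, *Sh3glb2* and *Slc6a11* (r of 0.97 for each), of which *Aqp4* and *Slc6a11* are astrocyte genes and *Mal* is a myelin gene. With group means subtracted, the closest were *Maff*, *Cbfb*, *Wdhd1*, *Trappc14* and *Mesd* for the endothelial genes (r from 0.82 to 0.85) and *Hes6*, *Idh1*, *Nelfa*, *Cenpf* and *Prrc2c* for the mural genes (r from 0.84 to 0.89). Of the vascular lists, only *Aqp4*, an endfoot gene, was among these 20.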

How the data were processed

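The 18 libraries were panRNA-seq libraries, made from 3′ cDNA ends (MACE-seq) after rRNA depletion and polyadenylation. The authors removed duplicates by unique molecular identifiers, trimmed reads with cutadapt 4.6, mapped them with Bowtie2 2.4.4 first to non-coding and small RNA sequences, then to mm39, and counted them with HTSeq 2.0.2 without regard to strand, so reads of antisense and overlapping genes cannot be told apart. The deposited counts are whole numbers for each transcript. The authors' fold changes, p-values and 36 further columns of values per sample were not used.

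Counts were summed by gene name. Genes with at least 5 counts in at least 2 libraries of a fit were tested with the quasi-likelihood test of edgeR 4.0.16 (R 4.3.3) after TMM, with Benjamini-Hochberg adjustment over all genes tested, and a call needed an adjusted p of 0.05 or less with a log2 fold change of 1 or more in size. Genotypes were compared within the 6 libraries of a fraction, and fractions and the interaction in 12 libraries. Where a group had 1 to 3 counts, a ratio with an exact 95% interval was given, and a group at 0 was set to a floor of 3 counts. Exact intervals and floors cover counting error only, and p-values the spread between the libraries of a fit. In the fits of 12 libraries, those that share animals were taken as separate samples. Intervals of fold changes are 95% normal intervals from the SE. The fits were tested on simulated data. Runs of 31 bases shared with other genes, on either strand, came from GENCODE vM39 transcripts, and all 42 entries of the members were found there.

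The members and gene lists were chosen with earlier results of these data known. Named genes were all members, in each comparison the 3 largest log2 fold changes each way among called genes of the vascular lists, and the 5 genes most like the members; *Abcc9*, *Kcnj8*, *Vtn* and the further list genes named were added as examples after their values were seen. Alternatives were DESeq2 1.42.0, its size factors, no 10 most abundant transcripts, other filters, 1 transcript a gene, all 18 libraries in 1 fit, the replicate number as a block, the adjusted p alone and each library left out. Leaving out entries shared with over 1000 genes was chosen after seeing the data.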

Additional observations from a re-analysis of the deposited data

Results flagged for a closer look

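The effect of the knockin differed between the microglia and astrocyte fractions for 3 of the 81 tested genes of the vascular lists, by the interaction term of edgeR, where 1.14% of all 13277 genes tested were called. *Nrp1* fell in KIN astrocytes, with 11, 16 and 12 counts in WT and 4, 1 and 3 in KIN, while it stood at 11.6 ± 1.85 CPM in WT and 18.3 ± 1.66 CPM in KIN microglia (SD, n = 3 each). The difference of the 2 log2 fold changes was 2.76 (SE 0.55, adjusted p = 0.00238 by edgeR). *Pdgfb*, with 31.4 ± 3.35 CPM in WT and 33.2 ± 5.35 CPM in KIN microglia, had a difference of 2.65 (SE 0.72, adjusted p = 0.0461 by edgeR), which was not called with DESeq2 (adjusted p = 0.0729), with no low-count filter (0.0692), with all 18 libraries in 1 fit (0.0800), by the transcript of highest mean (0.439), without any 1 astrocyte library other than WT library 2 (up to 0.174), or without WT microglia library 1 (0.0542) or KIN microglia library 1 (0.0939) or 3 (0.0704). *Notch3* had a difference of -2.85 (SE 0.69, adjusted p = 0.0186 by edgeR), with 9.97 ± 0.744 CPM in WT and 10.6 ± 0.892 CPM in KIN astrocytes beside 3.47 ± 2.30 and 0.501 ± 0.254 CPM in microglia (SD, n = 3 each). DESeq2 called *Nrp1* and gave *Notch3* no adjusted p. The edgeR call of *Notch3* was lost without WT microglia library 1 or 3 or KIN microglia library 2 or 3.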

How the results depend on the processing

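For 78 log2 fold changes of single genes, 1429 values were obtained under alternative settings. Of these, 1341 kept their direction and their side of the threshold, and 21 changed sign. The counts of genes called are not among them and are given below. *Itm2a*, *Slco1a4* and *Ly6c1* lay near the count floor in all fractions, and all members except *Bsg* and *Pecam1* did so in the neuronal fraction, so depth limits every statement there.

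The number of members called in KIN astrocytes was 1 with the transcript of highest mean or the adjusted p alone. In KIN microglia it was 0 with DESeq2 (which gave *Cldn5* no adjusted p) and with a mean of at least 10 counts, and 0 to 1 with single libraries left out. For astrocytes against microglia it was 3 with a mean of at least 10 counts and 3 to 6 with libraries left out, 3 being without KIN astrocyte library 1. For neurons against astrocytes it was 4 with that filter and 7 to 8 with libraries left out, and for neurons against microglia 1 with that filter, 4 with the transcript of highest mean or all 18 libraries in 1 fit, and 2 to 4 with libraries left out. The other vascular genes called in KIN astrocytes were 3 with DESeq2, 7 with all 18 libraries and 5 to 12 with libraries left out. In KIN microglia they were 0 with DESeq2 or the higher filter, 2 with no filter or all 18 libraries, and 0 to 2 with libraries left out. For the interaction they were 1 with DESeq2 and 1 to 4 with libraries left out, 1 being without WT microglia library 1 or KIN microglia library 3. The causes of these changes were not tested, beyond fewer genes tested under the higher filter.

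Signs changed where the fold change was small. Without entries shared with over 1000 genes, *Pecam1* was -0.24 in KIN astrocytes, -0.38 in KIN microglia and -0.16 for the interaction. With the transcript of highest mean, *Ly6c1* was -0.31 in KIN astrocytes, *Flt1* -0.18 for the interaction and *Bsg* 0.26 in KIN neurons, where *Bsg* was 0.15 with no filter and 0.15 with all 18 libraries. With libraries left out, *Slco1a4* ranged from -0.55 to 0.31, *Ly6c1* from -0.23 to 0.68 and *Itm2a* from -0.040 to 0.40 in KIN astrocytes. *Flt1* ranged from -0.48 to 0.20 and *Bsg* from -0.20 to 0.10 in KIN microglia, *Bsg* from -0.22 to 0.28 in KIN neurons, and for the interaction *Pecam1* from -0.19 to 0.31 and *Itm2a* from -2.37 to 1.44.

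The groups share replicate numbers, and the 3 fractions were isolated from the same brains, but the labels do not tie a number to a mouse. Correlations of the deviations of libraries with the same number were -0.0634 to 0.0536 between genotypes within a fraction (9 pairs) and -0.0366 to 0.209 between fractions (18 pairs), the highest being that of WT astrocyte and microglia library 2. With the replicate number as a block, 0 members were called in KIN astrocytes, 1 in KIN microglia, 5 between astrocytes and microglia, 7 between neurons and astrocytes and 2 between neurons and microglia. The other vascular genes called were then 13 in KIN astrocytes, 0 in KIN microglia and 3 for the interaction.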
